A study of Homo sapiens with 12 samples.

Results

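HIF1A, VEGFA, EPO, ADM, CA9, NDRG1, BNIP3, ANKRD37, EGLN1 and EGLN3 are genes of the cellular answer to low oxygen, and they were followed here by name, as 10 genes of the 57736 with 3′ regions in the count files. HepG2 cells, an established human liver cancer line, and Ls174 cells, an established line from a human colon cancer, were cultured without or with an extract of the red seaweed Hypnea musciformis (HME) for 24 h. Each of the 4 groups held 3 biological replicates, giving 12 libraries: HepG2 control, HepG2 HME, Ls174 control and Ls174 HME. All cells were labelled wild type (WT) and were kept in DMEM with 10% fetal bovine serum and antibiotics. The labels give 0.7 mg/ml HME, described there as the IC50 concentration, which inhibits growth in part. The paper's methods give a slightly higher concentration for these cultures. Control cells received no treatment. The study asked how the extract changes gene expression in cancer cells of liver and intestine.

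Cells sense oxygen through the EGLN prolyl hydroxylases, which in the presence of oxygen hydroxylate the alpha subunits of the hypoxia-inducible factors (HIF), so that the VHL ubiquitin ligase binds and removes them. In low oxygen the alpha subunits, HIF1A and its relative EPAS1 (HIF-2 alpha), persist, pair with ARNT and bind short DNA elements with the core ACGTG or GCGTG near genes for blood vessel growth, red cell production, glycolysis, pH control and mitochondrial turnover. HIF1A is controlled largely as a protein, which transcript counts do not measure, and many HIF targets, VEGFA, ADM and NDRG1 among them, also answer to other stress signals. The liver makes erythropoietin (EPO) before birth and keeps some capacity afterwards.

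The libraries held 1790841 to 3656662 counts and 13885 to 19354 genes with a count. Levels are given as CPM, a gene's share of the counts of a library on a common scale after normalization by the trimmed mean of M values (TMM), on which scale the floor of 3 counts lies between 0.764 and 1.85 CPM in a library. Reads come from transcript ends, so a count does not grow with transcript length. HepG2 control 2 and Ls174 control 1 stood apart from their groups, with a correlation across genes of 0.829 to 0.837 with the other controls of their line, against 0.947 and 0.974 between those others. The 8 liver markers summed to 13061 to 19602 CPM in HepG2 and 24.0 to 153 CPM in Ls174 libraries, highest in Ls174 control 3. The 8 colon markers summed to 372 to 442 CPM in Ls174 and 68.6 to 208 CPM in HepG2. Of them, CDX1, CDX2, LGALS4 and TFF3 were higher in every Ls174 library than in every HepG2 library, VIL1 had 135 CPM in HepG2 and 62.5 CPM in Ls174 controls on average, and MUC2, CEACAM5 and KRT20 had at most 17 counts. HepG2 HME 2 held 1560 counts of COL1A1 and 1153 of COL1A2, both type I collagen chains, and 952 CPM summed over 7 mesenchymal markers, against 3.74 to 16.7 CPM in the other HepG2 libraries.

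Nearly all counts of most genes came from 1 region at the annotated transcript end, given here on hg19 (GRCh37). HIF1A was counted at chr14:62213658-62215173 (99.1% of its counts, 87.1% of the region in annotated UTR), VEGFA at chr6:43752284-43754421 (98.2%), EPO at chr7:100320757-100321520 (100%) and ADM at chr11:10328020-10329141 (100%). The region of CA9 was chr9:35681023-35681353 (100%), that of NDRG1 chr8:134249217-134251362 (99.8%), that of BNIP3 chr10:133781381-133782027 (99.7%) and that of EGLN1 chr1:231499300-231502156 (100%). ANKRD37 was counted mainly at chr4:186321172-186321592 (87.6%), and the 27 counts of EGLN3 were split between chr14:34393240-34395096 (55.6%) and chr14:34417439-34419511 (37.0%). No region with counts overlapped a region of another gene except the 2 ANKRD37 regions that hold 310 and 42 of its counts and lie opposite UFSP2. Whether the counting used the strand is not stated.

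Of the 7 genes with a difference at the study's thresholds in an HME comparison, described next, the promoters of 5 are shown because these genes share a regulator that binds a short known core. Windows from 250 bases before to 50 bases after the RefSeq transcript start were searched for ACGTG and GCGTG on both strands (CACGT and CACGC when read on the sense strand, with CACGTG counted as 2 overlapping matches), and matches are in capitals. Windows come from the RefSeq table of GRCh38.p14, each had 1 exact match in GRCh37, and positions are on GRCh37. Windows of VEGFA and NDRG1 are not shown.

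EPO (chr7:100317841-100318140, plus strand): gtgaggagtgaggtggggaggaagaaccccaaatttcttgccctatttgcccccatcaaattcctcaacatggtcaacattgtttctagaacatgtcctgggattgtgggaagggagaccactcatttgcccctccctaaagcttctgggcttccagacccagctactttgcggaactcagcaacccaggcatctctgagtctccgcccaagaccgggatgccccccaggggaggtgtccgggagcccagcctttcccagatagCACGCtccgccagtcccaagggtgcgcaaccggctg
ADM (chr11:10326370-10326669, plus strand): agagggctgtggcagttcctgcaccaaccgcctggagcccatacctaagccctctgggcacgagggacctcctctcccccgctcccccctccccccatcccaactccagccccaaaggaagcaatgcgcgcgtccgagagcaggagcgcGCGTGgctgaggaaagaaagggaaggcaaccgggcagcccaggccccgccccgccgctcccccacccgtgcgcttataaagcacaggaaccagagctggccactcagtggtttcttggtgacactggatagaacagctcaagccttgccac
CA9 (chr9:35673675-35673974, plus strand): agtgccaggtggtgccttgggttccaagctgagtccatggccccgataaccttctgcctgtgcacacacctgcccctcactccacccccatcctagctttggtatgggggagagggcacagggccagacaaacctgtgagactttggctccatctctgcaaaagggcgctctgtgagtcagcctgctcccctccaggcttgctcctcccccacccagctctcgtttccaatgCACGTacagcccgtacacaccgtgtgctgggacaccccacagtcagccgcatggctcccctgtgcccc
BNIP3 (chr10:133795378-133795677, minus strand): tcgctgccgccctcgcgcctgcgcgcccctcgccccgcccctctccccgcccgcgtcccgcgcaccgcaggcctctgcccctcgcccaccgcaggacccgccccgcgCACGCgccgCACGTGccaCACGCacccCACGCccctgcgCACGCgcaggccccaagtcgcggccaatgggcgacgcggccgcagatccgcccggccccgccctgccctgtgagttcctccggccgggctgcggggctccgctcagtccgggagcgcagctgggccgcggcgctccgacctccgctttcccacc
ANKRD37 (chr4:186317745-186318044, plus strand): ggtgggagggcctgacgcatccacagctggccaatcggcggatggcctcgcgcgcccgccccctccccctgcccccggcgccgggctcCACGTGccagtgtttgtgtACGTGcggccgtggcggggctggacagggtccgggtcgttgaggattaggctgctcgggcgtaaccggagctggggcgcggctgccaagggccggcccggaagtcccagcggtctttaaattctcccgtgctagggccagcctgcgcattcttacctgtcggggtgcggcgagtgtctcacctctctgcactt

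ADM held 1 match 101 bases before the start, CA9 had 1 that began 18 bases before it, and EPO had 1 within the first transcribed bases. BNIP3 carried 6 matches between 143 and 104 bases before the start, and ANKRD37 carried 3 between 162 and 143 bases before it. Over all RefSeq windows, 17012 of 35116 (48.4%) held at least 1 match, and so did 7 of the 9 windows searched for 8 of the genes here, the exceptions being EGLN3 and the downstream of the pair of HIF1A windows. A match is a string of letters, and no binding was measured.

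HME treatment of HepG2 cells was accompanied by higher transcript levels of ADM, VEGFA and NDRG1 and a lower level of EPO. ADM, a vasodilator peptide, rose 7.79-fold, VEGFA, the main growth factor for blood vessels, rose 3.86-fold, and NDRG1, a stress-induced growth regulator, rose 3.81-fold. EPO, the hormone that drives red cell formation, fell 10.4-fold. In Ls174 cells no member passed an adjusted p under 0.05. VEGFA and NDRG1 were higher and CA9 lower there in each HME library than in each control library. Over all tested genes in Ls174, groups did not overlap for 23.8%.

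In HepG2, 8 of the 10 genes had enough counts for the test, EPO through its control libraries only and ANKRD37 through its HME libraries only. Of these 8, 4 were called at an adjusted p under 0.05 (Benjamini-Hochberg, edgeR quasi-likelihood F test), 3 higher and 1 lower, where 3.31% of all 11343 tested genes were called, 2.77% higher and 0.538% lower. Of the calls over all genes, 83.7% were higher with TMM, against 72% with upper-quartile and 60.3% with library-size scaling. The study's own limits are an unadjusted p below 0.05 together with 0.58 or more on the log2 scale in either direction, and by them 5 were higher (ADM, VEGFA, NDRG1, BNIP3, ANKRD37) and 1 lower (EPO), against 22.2% of all tested genes, 11.3% higher and 10.9% lower. Groups did not overlap for 7 of the 8, all but HIF1A, against 30.8% of all tested genes. With at least 10 counts in every library, which leaves out EPO and ANKRD37, edgeR called 2 of 6 tested genes, ADM and NDRG1. Over all genes this filter gave fewer calls than the main fit, as counted below. The median log2 fold change was 1.39 for the 8 genes and −0.04 for all tested genes. These 4 calls were sensitive to single libraries: 0 remained without HepG2 HME 2 or without HepG2 HME 3, 1 (EPO) without HepG2 control 3, 1 (ADM) without HepG2 HME 1, 2 (NDRG1 and VEGFA) without HepG2 control 1 and 4 without HepG2 control 2. The direction of each of the 4 was kept in all 6 of these fits. Over all tested genes these fits called from 95 (without HepG2 HME 3) to 921 (without HepG2 control 2), against 375 with every library.

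In Ls174, 8 genes were tested as well, EPO and EGLN3 having too few counts there, as CA9 and EGLN3 had in HepG2. ADM reached the Ls174 test through its control libraries only. At an adjusted p under 0.05, edgeR called 0 of 8, where 1.18% of all 11319 tested genes were called, 0.318% higher and 0.866% lower, and 4 of the 8 had an unadjusted p under 0.05. DESeq2 called 2 of the 8, VEGFA and CA9, and over all tested genes it also called more than edgeR did, as counted below. At the study's thresholds 2 were higher (VEGFA, NDRG1) and 2 lower (ADM, CA9), against 12% of all tested genes, 4.11% higher and 7.85% lower. Groups did not overlap for 3 of the 8, against 23.8% of all tested genes. The median log2 fold change was 0.16, and −0.00 over all tested genes. Without Ls174 control 1, which stood apart, 4 were called: VEGFA, CA9, NDRG1 and ANKRD37. That fit called 979 genes over all tested genes, against 134 with every library.

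**Figure D1:**
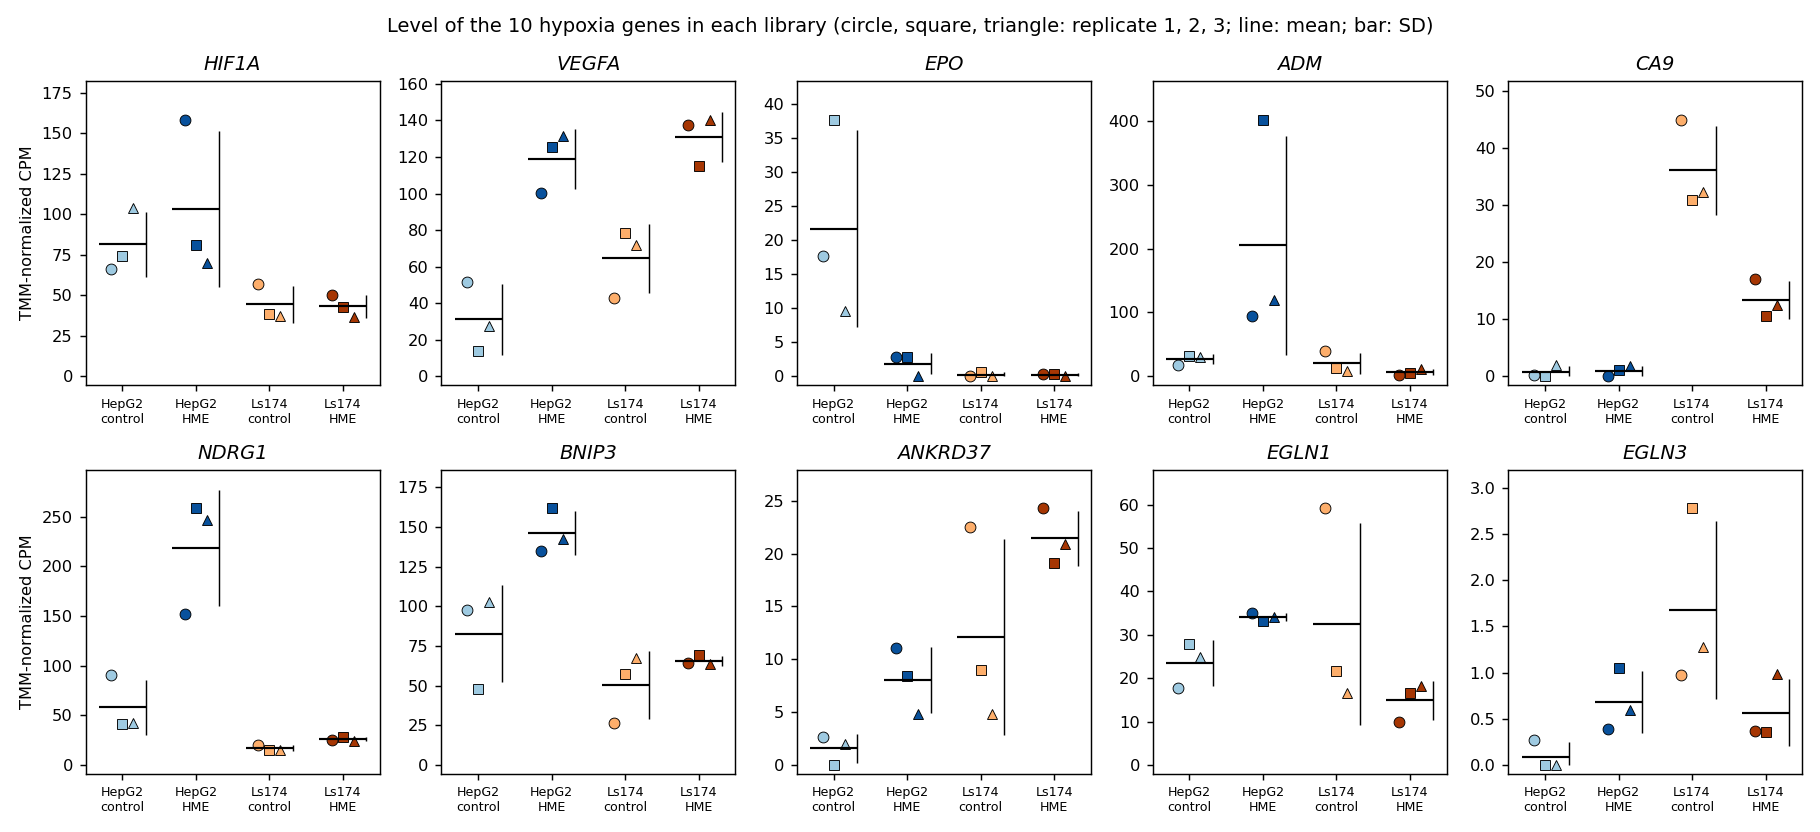
TMM-normalized CPM of each of the 10 genes in the 12 libraries, with 1 panel per gene, an axis from 0 in each panel, points for libraries, a line for the mean and a bar for the SD of 3. VEGFA was above the controls in the HME libraries of both lines, EPO was nearly absent from Ls174, and CA9 was nearly absent from HepG2.

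HIF1A, the oxygen-regulated subunit itself, showed no difference beyond the spread in either line. In HepG2 it had 66.2, 74.2 and 104 CPM in control 1, 2 and 3, and 159, 81.2 and 69.9 CPM in HME 1, 2 and 3. The groups overlapped, HME 1 being the only library above the controls, and the log2 fold change was 0.36 (SE 0.38, adjusted p 0.616, edgeR). In Ls174 the level was 44.3 ± 11.2 CPM without HME and 43.2 ± 7.06 CPM with it (mean ± SD, n = 3), which is −0.04 on the log2 scale (SE 0.25, adjusted p 0.958, edgeR). The sign of the HIF1A difference turned without HepG2 HME 1 in HepG2 (−0.07), and in Ls174 without Ls174 control 1 (0.19), without Ls174 HME 3 (0.079) and with the largest region only (0.00071).

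Of the oxygen sensors, EGLN1, the main HIF prolyl hydroxylase, had 17.6, 27.8 and 24.9 CPM in HepG2 controls and 35.02, 33.3 and 34.0 CPM in HepG2 HME libraries. Every treated library lay above every control, but the log2 fold change of 0.55 (SE 0.32) did not pass (adjusted p 0.333, edgeR). In Ls174 EGLN1 had 59.2, 21.6 and 16.5 CPM without HME and 9.79, 16.6 and 18.3 CPM with it. Control 1 stood far above the others and the groups overlapped, while the log2 fold change was −1.11 (SE 0.51, adjusted p 0.386, edgeR) and −0.34 without Ls174 control 1. EGLN3, the hydroxylase known as the most strongly hypoxia-induced of the family, was too sparse for a test with HME, at 0 to 3 counts in every HepG2 library, 2, 9 and 5 counts in Ls174 controls and 1, 1 and 3 counts in Ls174 HME libraries. At this depth no difference of EGLN3 with HME was detectable.

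VEGFA and NDRG1 were the members whose groups did not overlap, in the same direction, in both lines. Over all tested genes, groups did not overlap for 30.8% in HepG2 and 23.8% in Ls174. The share of genes without overlap in both lines was not computed. In HepG2 VEGFA had 51.8, 13.6 and 27.7 CPM in control 1, 2 and 3, and 100.3, 125 and 131 CPM in HME 1, 2 and 3. The HME libraries all lay well above the highest control, and the log2 fold change was 1.95 (SE 0.44, adjusted p 0.0453, edgeR), with adjusted p from 0.0151 to 0.159 when each library was left out in turn. This call did not hold with upper-quartile scaling (adjusted p 0.0553), library-size scaling (0.0727) or at least 10 counts in every library (0.0544). In Ls174 it had 43.0, 78.4 and 72.0 CPM without HME and 137, 115 and 141 CPM with it. Again no treated library reached down to a control, with a log2 fold change of 1.01 (SE 0.25, unadjusted p 0.00309, adjusted p 0.113, edgeR) and an adjusted p of 0.00698 without Ls174 control 1. The treated levels of the lines lay close together, 119 ± 16.5 CPM in HepG2 and 131 ± 13.7 CPM in Ls174, and were not tested against each other.

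EPO was a HepG2 transcript. Its counts were 66, 61 and 24 in HepG2 control 1, 2 and 3 (17.6, 37.7 and 9.64 CPM), and 7, 8 and 0 in HME 1, 2 and 3 (2.75, 2.80 and 0 CPM). The treated libraries all lay under the lowest control, and the log2 fold change was −3.38 (SE 0.77, adjusted p 0.0468, edgeR), with values from −3.75 to −2.66 (without HepG2 control 2) and adjusted p from 0.0426 to 0.144 when each library was left out. The 0 of HepG2 HME 3 allows up to 1.79 CPM at the floor of 3 counts. In Ls174 EPO had 0, 2 and 0 counts without HME and 1, 1 and 0 with it, all at or under the floor, so no fold change is given. In bulk RNA a lower level cannot be told apart from fewer cells that make the transcript.

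ADM was higher with HME in HepG2 and had a lower mean with HME in Ls174. In HepG2 it had 17.6, 31.5 and 30.5 CPM in control 1, 2 and 3, and 93.7, 402 and 119 CPM in HME 1, 2 and 3. All treated libraries were above all controls and HME 2 was highest by far, and the log2 fold change was 2.96 (SE 0.59, adjusted p 0.0269, edgeR). HME 2 is the library with type I collagen transcripts, and it also held 799 CPM of LOX, a collagen cross-linking enzyme and hypoxia target, against 0 to 1.61 CPM in the other HepG2 libraries. Among the 7 mesenchymal markers, COL1A1, COL1A2 and COL3A1 were over 3 counts there, and DCN, LUM and PDGFRB were at 0 counts. Without HepG2 HME 2 the ADM log2 fold change was 2.03 (adjusted p 0.0573, edgeR). Without HepG2 control 2 and HepG2 HME 2 together, a fit added after seeing the data, it was 2.22 (adjusted p 0.00187, edgeR). That fit also called more genes over all tested genes than the main fit. The source of those transcripts and their part in the level of ADM were not tested.

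**Figure D2:**
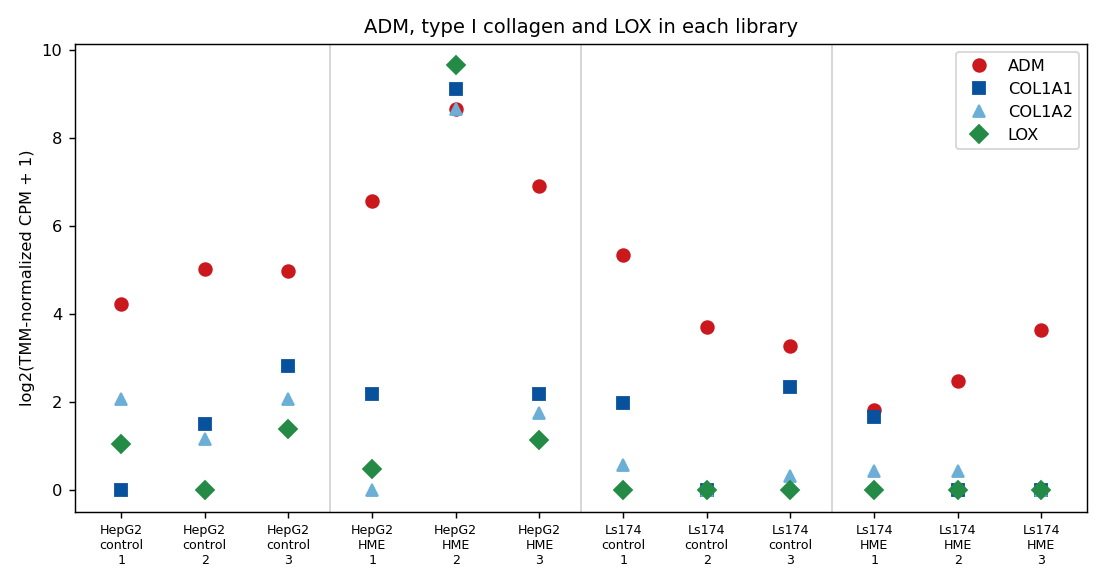
ADM, the collagen genes COL1A1 and COL1A2, and LOX in each of the 12 libraries, as log2(TMM-normalized CPM + 1), with 1 point per gene and library. All 4 genes were highest in HepG2 HME 2, while ADM was also above the controls in HepG2 HME 1 and 3, where the other 3 genes stayed low.

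In Ls174 ADM had 39.6, 12.04 and 8.65 CPM without HME and 2.54, 4.60 and 11.4 CPM with it. The groups overlapped, since HME 3 lay above control 3, and control 1 was highest. The log2 fold change was −1.66 (SE 0.71, unadjusted p 0.0461, adjusted p 0.364, edgeR), and −0.70 without Ls174 control 1. ADM reached this test through its control libraries only, with 7 counts in Ls174 HME 1. With at least 10 counts in every library it was not tested in Ls174.

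CA9, a membrane-bound carbonic anhydrase that acidifies the space outside the cell, was an Ls174 transcript. It had 44.99, 30.9 and 32.3 CPM in Ls174 control 1, 2 and 3, and 17.0, 10.6 and 12.4 CPM in HME 1, 2 and 3. All treated libraries lay under all controls, and the log2 fold change was −1.43 (SE 0.29, unadjusted p 0.000971, adjusted p 0.0670, edgeR), a level 2.70-fold lower that missed the threshold. The adjusted p was 0.00303 with DESeq2 and 0.00357 without Ls174 control 1, and reached 0.396 without Ls174 HME 2. In HepG2 CA9 had 0 to 5 counts in every library, 6 counts in all in each group, and was not tested.

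NDRG1 rose in HepG2. It had 90.3, 40.8 and 42.6 CPM in control 1, 2 and 3, and 151, 258 and 246 CPM in HME 1, 2 and 3. The groups did not overlap, control 1 and HME 1 being the nearest, and the log2 fold change was 1.93 (SE 0.40, adjusted p 0.0328, edgeR), with adjusted p from 0.0238 to 0.140 when each library was left out and 0.0527 with library-size scaling. In Ls174 it had 20.1, 15.4 and 15.02 CPM without HME and 24.6, 27.9 and 24.5 CPM with it. The groups were again separate, at a log2 fold change of 0.61 (SE 0.25, unadjusted p 0.0398, adjusted p 0.347, edgeR).

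BNIP3, a mitochondrial protein that marks mitochondria for removal, had 97.7, 47.6 and 103 CPM in HepG2 controls and 135, 162 and 142 CPM in HepG2 HME libraries. The groups were separate, with a log2 fold change of 0.84 (SE 0.34, unadjusted p 0.0331, adjusted p 0.187, edgeR). In Ls174 the level was 50.2 ± 21.2 CPM without HME and 65.5 ± 3.03 CPM with it, and the log2 fold change was 0.37 (SE 0.31, adjusted p 0.634, edgeR). Its processed copy BNIP3P1 had 21.7 ± 8.62 CPM in HepG2 controls and 22.3 ± 4.45 CPM with HME (log2 fold change 0.04, adjusted p 0.961, edgeR), and how reads that fit both were assigned is not stated.

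ANKRD37, an ankyrin repeat protein known as a HIF-1 target, was low in HepG2, with 10, 0 and 5 counts in controls and 28, 24 and 8 counts in HME libraries (2.67, 0 and 2.01 against 11.02, 8.40 and 4.78 CPM). The treated libraries were all above the controls, and the log2 fold change was 2.21 (SE 0.68, unadjusted p 0.00928, adjusted p 0.105, edgeR), with an adjusted p of 0.0328 in DESeq2. In Ls174 it had 22.5, 8.95 and 4.84 CPM without HME and 24.3, 19.1 and 20.9 CPM with it. Control 1 lay among the treated libraries, so that the log2 fold change of 0.87 (SE 0.51, adjusted p 0.495, edgeR) became 1.66 (adjusted p 0.00255, edgeR) without Ls174 control 1. The overlapping regions of UFSP2, on the opposite strand, had 15.1 ± 4.12 and 17.6 ± 3.81 CPM in HepG2 control and HME libraries, and 27.0 ± 9.02 and 36.5 ± 4.51 CPM in Ls174 (UFSP2 log2 fold changes 0.35 and 0.42, adjusted p 0.594 and 0.545, edgeR).

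**Figure D3:**
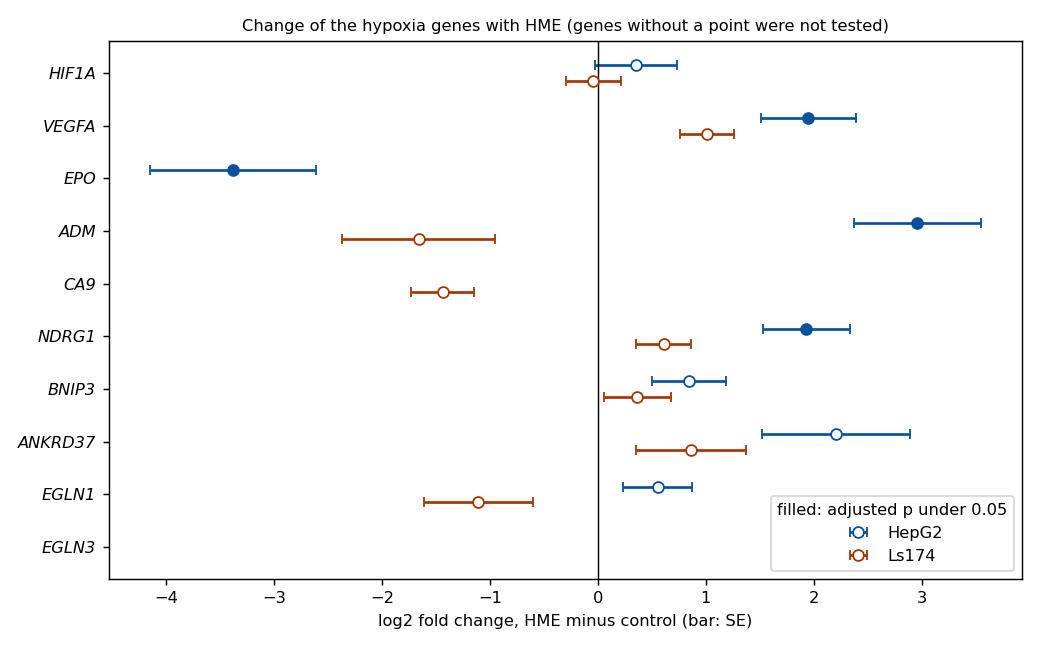
Log2 fold change of each gene, HME minus control, in HepG2 (blue) and Ls174 (brown), with bars for the SE of the edgeR fit on 3 against 3 libraries and filled points for an adjusted p under 0.05. In HepG2, 7 of the 8 tested genes lay to the right of 0 and EPO far to the left; in Ls174, 4 lay on each side and no point is filled.

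The lines also differed before any extract was added. Among the 6 control libraries 9 of the 10 genes were tested, and 3 were called at an adjusted p under 0.05. Over all 11907 tested genes, 23.5% were called. EPO reached the test through the HepG2 controls only, and CA9 and ANKRD37 through the Ls174 controls only. With at least 10 counts in every library, which leaves out these 3, edgeR called 1 of 6 tested genes, NDRG1. Fewer genes were also called over all genes with this filter, as counted below. EPO was higher in HepG2 (21.7 ± 14.5 against 0.206 ± 0.357 CPM, log2 difference 6.42, SE 1.01, adjusted p 0.00164, edgeR). The EPO value was 5.76 without HepG2 control 2, 5.77 without Ls174 control 3 and 8.94 without Ls174 control 2, which held both Ls174 counts, and was called each time. Its 151 counts in HepG2 against 2 in Ls174 correspond to a ratio of 88.6 after scaling, with an exact 95% interval of 24.1 to 738 that covers counting error only. CA9 was higher in Ls174 (36.1 ± 7.77 against 0.759 ± 1.09 CPM, log2 difference −5.43, SE 0.76, adjusted p 0.000917, edgeR), and the value was −7.29 without HepG2 control 3 and −4.86 without HepG2 control 1. NDRG1 was higher in HepG2 (57.9 ± 28.1 against 16.8 ± 2.79 CPM, log2 difference 1.82, SE 0.41, adjusted p 0.0106, edgeR), a call that was lost without Ls174 control 2 (adjusted p 0.0516).

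For the other 6 genes the difference between lines did not pass. HIF1A had 81.5 ± 19.9 CPM in HepG2 and 44.3 ± 11.2 CPM in Ls174 controls, without overlap (log2 difference 0.92, SE 0.34, adjusted p 0.0894, edgeR). ANKRD37 had 1.56 ± 1.39 and 12.1 ± 9.24 CPM, also without overlap (log2 difference −2.73, SE 0.88, adjusted p 0.0526, edgeR), and DESeq2 called it. The share of all tested genes without overlap between the lines was not computed. VEGFA had 31.0 ± 19.3 and 64.5 ± 18.9 CPM with overlapping groups (log2 difference −1.02, SE 0.48, adjusted p 0.167, edgeR). BNIP3, ADM and EGLN1 differed by log2 values of 0.74, 0.46 and −0.42, with adjusted p of 0.273, 0.636 and 0.623 (edgeR). EGLN3, not tested, had 16 counts in Ls174 and 1 in HepG2 controls, a scaled ratio of 13.6 (exact 95% interval 2.12 to 572, counting error only). By mean level in controls, the order in HepG2 was BNIP3, HIF1A, NDRG1, VEGFA, ADM, EGLN1, EPO, ANKRD37, CA9 and EGLN3. Of these neighbours only EPO and ANKRD37 differed in mean by more than the larger of their SDs. In Ls174 the order was VEGFA, BNIP3, HIF1A, CA9, EGLN1, ADM, NDRG1, ANKRD37, EGLN3 and EPO, where only ANKRD37 and EGLN3, and EGLN3 and EPO, differed by more than that.

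Whether the lines answered HME differently was tested as the interaction of cell line and treatment over all 12 libraries, which reuse the libraries of the comparisons above. Of 9 members tested, 1 passed, where 0.644% of all 13040 tested genes did. The ADM response was higher in HepG2 than in Ls174 by 4.60 on the log2 scale (SE 0.96, adjusted p 0.0447, edgeR). This call was kept in 1 of 12 fits that each left out 1 library, the fit without Ls174 control 3, while the difference stayed between 3.63 (without HepG2 HME 2; 3.69 without Ls174 control 1) and 5.40 (without Ls174 HME 3), and the adjusted p reached 0.163 without Ls174 HME 2. NDRG1 and EGLN1 had differences of 1.29 (SE 0.48) and 1.65 (SE 0.61), each with an adjusted p of 0.249 (edgeR). For VEGFA the difference between the lines was 0.89 (SE 0.54, adjusted p 0.514, edgeR), so the larger fold change in HepG2 was not shown to differ from that in Ls174. EPO (−3.46, SE 2.12), CA9 (1.58, SE 1.16), ANKRD37 (1.31), BNIP3 (0.44) and HIF1A (0.38) had adjusted p from 0.522 to 0.815 (edgeR), and EPO and CA9 had hardly any counts in 1 of the lines.

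Other genes of the pathway were read from 4 lists. Of 14 HIF pathway components, 12 were tested in HepG2, 0 passed an adjusted p under 0.05 in edgeR, and 1 was higher and 1 lower at the study's thresholds, against 22.2% of all tested genes, with a median log2 fold change of −0.07. VHL, which targets HIF alpha for removal, was at 85.3 ± 69.7 CPM in HepG2 controls and 29.5 ± 2.02 CPM with HME (log2 fold change −1.55, adjusted p 0.142, edgeR), and at 11.1 ± 6.35 and 25.9 ± 0.495 CPM in Ls174 (log2 fold change 1.18, adjusted p 0.262, edgeR). TCEB1, elongin C of the VHL complex, had a log2 fold change of 0.98 in HepG2 (adjusted p 0.144, edgeR). EPAS1, the HIF-2 alpha subunit that is the main regulator of EPO, had 80.3 ± 18.6 CPM in HepG2 and 3.11 ± 2.87 CPM in Ls174 controls (log2 difference 4.82, adjusted p 0.000629, edgeR), and in HepG2 its log2 fold change with HME was 0.48 (adjusted p 0.377, edgeR). EPAS1 had 3 to 13 counts in Ls174 control libraries and reached the line comparison through the HepG2 controls only. In Ls174, 11 components were tested, 0 passed, and 1 (VHL) was higher at the study's thresholds, against 4.11% of all tested genes.

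Of 24 other hypoxia targets, 17 were tested in HepG2, where 3 rose and 0 fell at an adjusted p under 0.05 (2.77% and 0.538% of all tested genes), 6 were higher and 2 lower at the study's thresholds (11.3% and 10.9% of all tested genes), and the median log2 fold change was 0.55. BHLHE40, a transcriptional repressor, rose by 3.78 on the log2 scale (adjusted p 0.0102, edgeR). It had 0 to 7 counts in HepG2 control libraries and reached the test through HME libraries only. DDIT4, an inhibitor of mTOR signalling, rose by 2.63 (adjusted p 0.0113, edgeR), and STC2, a secreted glycoprotein, by 2.37 (adjusted p 0.0271, edgeR). DDIT4 had 5 to 44 counts in HepG2 control libraries, which alone would not have brought it to the test. KDM3A, BNIP3L and INSIG2 had log2 fold changes of 1.95, 1.14 and 0.89, and ZNF395 and TMEM45A had −1.62 and −1.21, with adjusted p from 0.0673 to 0.184 (edgeR). In Ls174, 14 were tested, 1 rose and 0 fell (0.318% and 0.866% of all tested genes), and at the study's thresholds 1 was higher and 4 lower (4.11% and 7.85%), with a median of −0.29. DDIT4 was the gene that rose, from 14.3 ± 6.07 to 61.5 ± 8.91 CPM (log2 fold change 2.06, adjusted p 0.0344, edgeR). P4HA1, INSIG2, EFNA1 and ERO1L had log2 fold changes of −1.81, −0.83, −1.02 and −0.67 there (adjusted p 0.162 to 0.354, edgeR).

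Of 19 glycolytic HIF targets, 18 were tested in each line. In HepG2, 1 rose and 0 fell, against 3.31% of all tested genes called, and 4 were higher and 1 lower at the study's thresholds, against 22.2%, with a median log2 fold change of 0.34. PFKFB3, which makes the activator of phosphofructokinase, rose from 5.44 ± 0.546 to 119 ± 28.7 CPM (log2 fold change 4.45, adjusted p 0.000620, edgeR). HK2, SLC2A1 and ALDOC had log2 fold changes of 1.76, 1.31 and 1.11, and SLC2A3 of −1.08 (adjusted p 0.0772 to 0.184, edgeR). The HepG2 control libraries alone, at 7 to 108 counts, would not have brought HK2 to the test. In Ls174, 0 passed in edgeR, and SLC16A3, the lactate exporter, and SLC2A1, the main glucose carrier, were lower at the study's thresholds (log2 fold changes −0.98 and −0.71, adjusted p 0.125 and 0.367, edgeR), 2 of 18 against 7.85% of all tested genes lower, with a median of 0.07. Of 15 angiogenic ligands and receptors, 4 were tested in HepG2 and 2 in Ls174, and 0 passed in edgeR in either line. PGF, a ligand of the VEGF receptor FLT1, had a log2 fold change of 1.09 in HepG2 (adjusted p 0.132, edgeR), and RAMP1, an accessory protein of receptors for calcitonin-family peptides, had −0.997 in Ls174 (adjusted p 0.265, edgeR).

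**Figure D4:**
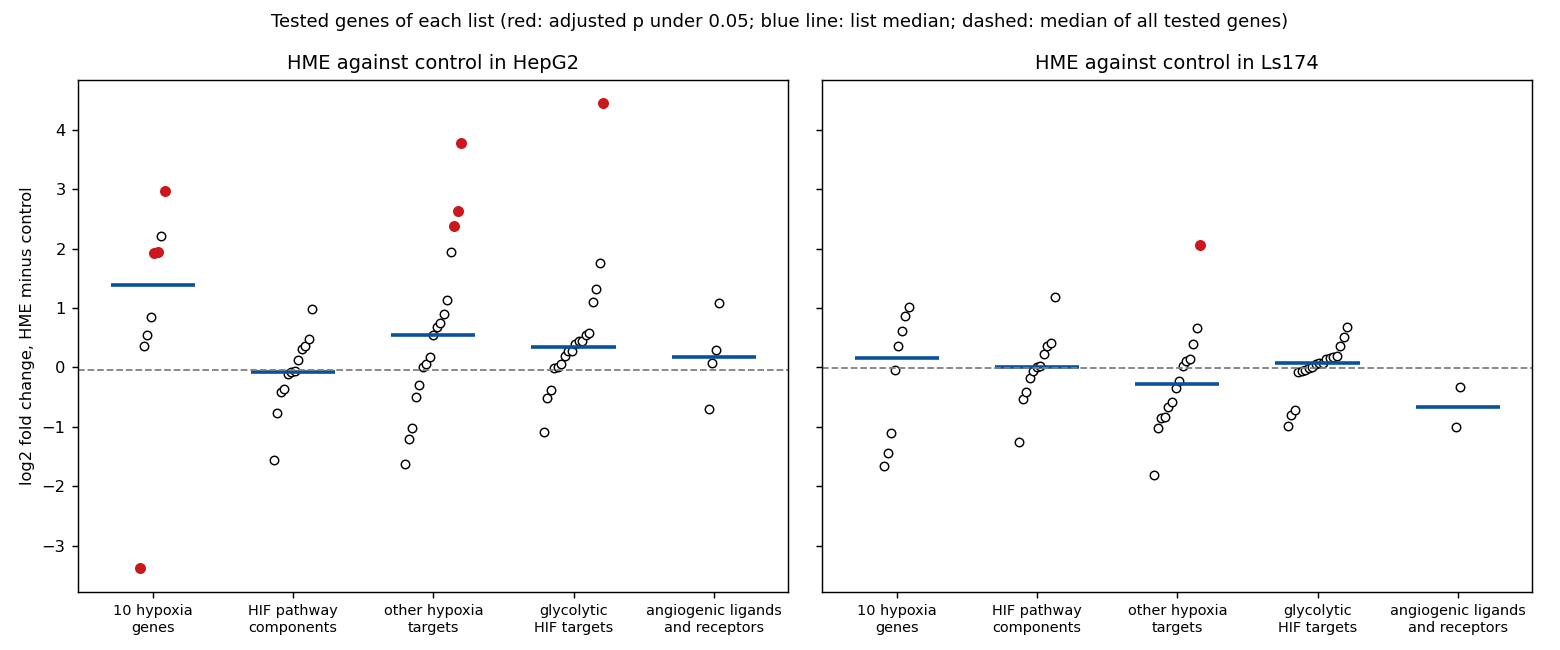
Log2 fold change, HME minus control, of every tested gene in the 5 lists, with HepG2 on the left and Ls174 on the right, a blue line at each list's median, a dashed line at the median of all tested genes and red points for an adjusted p under 0.05. In HepG2 the red points are ADM, VEGFA, NDRG1 and EPO, then BHLHE40, DDIT4 and STC2, and PFKFB3; in Ls174 the single red point is DDIT4.

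The genes whose level followed VEGFA most closely over the 12 libraries, by Pearson r of log2 CPM among 13040 genes, were PTS (0.965), S100A11 (0.962) and DDIT4 (0.961). All 3 had higher mean levels with HME in both lines, for example S100A11 with 8.06 against 45.6 CPM in HepG2 and 24.7 against 52.0 CPM in Ls174. For EPO they were TMEM150C (0.966), CNTNAP1 (0.951) and SSTR3 (0.951), which were highest in HepG2 controls, such as CNTNAP1 with 12.2 CPM there against 3.29 CPM with HME and 0.436 and 0.242 CPM in Ls174. The libraries share their cell line and treatment in these correlations, which are given as a description.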

How the data were processed

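RNA from 12 cultures (3 biological replicates in each of 4 groups) was made into 3′ libraries (QuantSeq) and sequenced on an Ion Proton. Per the paper's methods the authors aligned reads with Hisat2 at default settings to hg19 (GRCh37) and counted them with metaseqR2; versions and the treatment of strand and multiple alignments are not given in the sources used here. The deposited files hold raw counts for 144910 regions per library. Each gene's count is the sum over its regions. Tests used edgeR 4.0.16 in R 4.3.3 (TMM, filterByExpr, quasi-likelihood F test, two-sided, Benjamini-Hochberg over all tested genes), fitted on the 6 libraries compared, or on 12 for the interaction, and SE is the log2 fold change divided by the root of F. Scripts were tested on simulated data. Alternatives were DESeq2 1.42.0, other scalings and filters, the largest region of each gene, a replicate block, 1 fit of all libraries and leaving out each library. Reads carry no molecular identifiers, so intervals and floors cover counting error only.

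The genes, the 4 pathway lists and the 5 marker lists were chosen with earlier results of these data known. Named genes are the 10 genes, every listed gene with an adjusted p under 0.05 in an HME comparison, up to 5 further genes per list and line with the smallest unadjusted p at the study's thresholds, and the 3 genes most correlated with VEGFA and with EPO. EPAS1, LOX, UFSP2, BNIP3P1 and the markers named are named outside this rule, with their values known. The blood marker list summed to 94.0 to 552 CPM in HepG2, mostly LYZ, and up to 4.58 CPM in Ls174, and the endothelial list to at most 18.2 CPM. Proteome and quantitative PCR data were not analysed here, and 1 gene is not reported here and was left out of its list.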

Additional observations from a re-analysis of the deposited data

Results flagged for a closer look

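The response of ADM to HME differed between the lines, with an interaction of 4.60 on the log2 scale (edgeR, adjusted p 0.0447): ADM was higher in 3 of 3 HepG2 HME libraries than in every HepG2 control and had a lower mean in Ls174 HME libraries, where the groups overlapped. HepG2 HME 2, with 402 CPM of ADM, also held 952 CPM summed over 7 mesenchymal markers, mostly COL1A1 (546 CPM) and COL1A2 (404 CPM). DCN, LUM and PDGFRB had 0 counts there. Without HepG2 HME 2 the difference was 3.63 (adjusted p 0.109, edgeR). The call was kept in 1 of 12 fits that each left out a library, in 4 of 20 alternatives in all, and was lost with the replicate block (adjusted p 0.169, edgeR).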

How the results depend on the processing

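Over all tested genes, the median change in HepG2 moved, on the log2 scale, from −0.04 to −0.20 with library-size scaling and −0.11 with upper-quartile scaling, and in the line comparison from 0.04 to −0.17; changes of single genes are relative to that. Of 562 gene-level values under an alternative, 500 kept direction and side of the threshold, 19 gained a call, 37 lost one and 6 turned direction, all 6 for HIF1A or EGLN1 values that were never called. Genes with few counts (EPO, CA9, ANKRD37, EGLN3) had the widest errors.

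In HepG2, 375 genes were called, and 1033 with DESeq2, 1407 with no filter beyond 1 count, 188 with at least 10 counts in every library, 807 in 1 fit of all 12 libraries and 701 without HepG2 control 2 and HepG2 HME 2 together, an alternative added after seeing the data. Members called numbered 4, 3 with upper-quartile scaling (VEGFA lost), 2 with library-size scaling (VEGFA and NDRG1 lost) and 2 with at least 10 counts (6 tested, EPO not among them, VEGFA lost). At the study's thresholds 2517 genes became 3838 with no filter. In Ls174, 134 calls became 438 with DESeq2, 604 with no filter and 0 with the replicate block (1192 genes at an unadjusted p under 0.05), and 1353 at the study's thresholds became 2356 with no filter. Members called in Ls174 numbered 0, and 2 with DESeq2, 1 with library-size scaling, 3 with no filter and 1 with at least 10 counts, and 4 at the study's thresholds became 2 with the replicate block. Between lines, 2798 calls became 912 with at least 10 counts and 4631 in 1 fit of all 12 libraries, and 3 members became 1 with at least 10 counts, which leaves out EPO, CA9 and ANKRD37. For the interaction, 84 calls became 397 with DESeq2, 49 with library-size scaling, 367 with no filter, 46 with at least 10 counts and 16 with the replicate block. The 1 member called there, ADM, became 0 with library-size scaling, upper-quartile scaling, the largest region only, the replicate block and without HepG2 control 2 and HepG2 HME 2 together, and 0 of 5 with at least 10 counts, where ADM was not tested. Except where stated, the cause was not tested.

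Whether replicate numbers pair the samples is not stated. Deviations of same-numbered control and HME libraries correlated at −0.17 to 0.09, and not every library correlated best with its own number. With 3 libraries per group these correlations cannot decide whether samples were paired. With the replicate block HepG2 had 349 calls, with 4 members.

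With each library left out in turn, calls ranged from 95 to 921 in HepG2 (0 to 4 members), 0 to 979 in Ls174 (0 to 4 members), 2134 to 3367 between lines (2 to 4 members) and 17 to 143 for the interaction (0 to 1 member). At the study's thresholds they ranged from 1735 to 2874 (5 to 7 members) and from 838 to 1824 (2 to 4 members). HIF1A in Ls174 was 0.00071 with the largest region only, and ranged from −0.068 (without HepG2 HME 1) to 0.58 in HepG2, from −0.16 to 0.19 in Ls174 and from −0.11 to 0.60 in the interaction; EGLN1 between lines ranged from −0.73 to 0.32.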

Other observations

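Some transcripts of ANKRD37 in Ls174 were counted upstream of its main end, at chr4:186320724-186321094 (hg19). This region had 0, 4 and 0 counts in Ls174 control 1, 2 and 3, and 13, 11 and 9 counts in HME 1, 2 and 3. Its share of the counts of ANKRD37 was 0%, 13.8% and 0% without HME and 19.4%, 20.4% and 14.1% with HME, on totals of 19 to 67 counts per library. In HepG2 the region had at most 3 counts in a library. It was chosen after its values were seen, the shares were not tested, and the region lies opposite UFSP2. VEGFA had 1.84% of its counts at an upstream region, chr6:43746502-43746871.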
